A study of Mus musculus with 65 samples.

Results

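Retinas of adult mice kept for 21 days on a diet that removes microglia were compared with retinas of mice kept on it for 5 days, to ask whether the tissue changes with the length of the depletion. The days count the time on the diet, not the time without microglia. The comparison rested on 6 of the 65 mice of the series, 3 mice fed the depletion diet for 21 days (DEP21, replicates 2 to 4) and 3 mice fed it for 5 days (DEP5, replicates 1 to 3). They were chosen by their sample titles, which end in RE for all 6. The fourth DEP21 mouse, replicate 1, has a title ending in re and entered only an alternative fit. All mice were adult C57BL/6J by their labels. Every mouse of both groups received PLX5622, an inhibitor of the receptor tyrosine kinase CSF1R, mixed into AIN-76A chow, so the groups differed in the days on the diet and had no untreated member. Control diet mice (CD, 3 mice with RE titles) and the depletion groups of 2, 7, 10 and 14 days (3 RE mice each) are cited only for reference levels and for the checks over time.

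Microglia are the resident macrophages of the retina. They depend on signalling through CSF1R for survival, and in the adult tissue they lie mostly in the synaptic layers, where they prune synapses, clear debris and release complement and cytokines. Müller glia, the radial glia that span the retina, and the photoreceptors are among the cells whose transcripts are known to change in a stressed retina, with glial fibrillary acidic protein as the classical glial marker.

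The 6 libraries held 7572657 to 8760443 counted reads. Levels are given as counts per 1000000 counted reads (CPM), which do not correct for gene length, and 3 counts, taken as the floor, corresponded to 0.342 to 0.396 CPM. Means are given with the SD over the 3 mice of a group. Each library came from its own mouse by the study's methods. All 6 libraries had the transcripts of a retina and of male animals, with the rod transducin gene Gnat1 at 11102 to 14712 CPM, Xist at 0.120 to 1.06 CPM and the Y-linked Ddx3y at 68.7 to 93.4 CPM. Reads on Gm42418, a gene model that overlaps the ribosomal RNA precursor, stood at 96.7 CPM in DEP5 replicate 1 and 97.6 CPM in DEP21 replicate 3, against 0.240 to 1.35 CPM in the other 4 mice. The number in the sample title was 6, 14 and 2 for the DEP5 mice and 18, 21 and 28 for the DEP21 mice. What these numbers stand for is not given in the sources used here, and days on the diet and title number cannot be told apart in this comparison. In bulk tissue, fewer cells of a type and less RNA per cell cannot be told apart either.

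No gene met the threshold for a difference between 21 and 5 days on the diet. Of 23198 genes tested, 0 (0%) were differentially expressed genes (DEGs), which needed a false discovery rate (FDR, the Benjamini-Hochberg adjusted p of edgeR's quasi-likelihood test) under 0.01 together with a log2 fold change above 1 or below -1. The smallest FDR was 0.759. An unadjusted p under 0.05 was found for 719 genes, 406 higher in DEP21 (1.75% of the genes tested) and 313 lower (1.35%). The 3 mice of one group lay wholly above the 3 of the other for 1931 genes (8.32%), 1150 of them with DEP21 on top. DESeq2 called 0 genes as well, with 230 at an unadjusted p under 0.05, and edgeR's likelihood ratio test called 3 genes, Gm10222, Gm28439 and Crybb2. Leaving out DEP21 replicate 3 raised the count of DEGs to 17, and leaving out DEP21 replicate 4 raised it to 3.

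The intervals show how large a difference could have gone unseen. For 12249 genes with a mean of at least 5 CPM over the 6 mice, the median standard error of the log2 fold change was 0.12 and the median absolute log2 fold change was 0.07. The 95% interval lay within -1 and 1 for 12217 of these genes (99.7%), and within -0.5 and 0.5 for 10380. Over all genes tested, which include many near the floor, it lay within -1 and 1 for 14569 (62.8%). A doubling or halving between day 5 and day 21 was therefore outside the interval of nearly every gene of moderate or high level, and could not be judged for most genes of low level. Only 9 of the 12249 genes had a log2 fold change beyond 1.

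**Figure D1:**
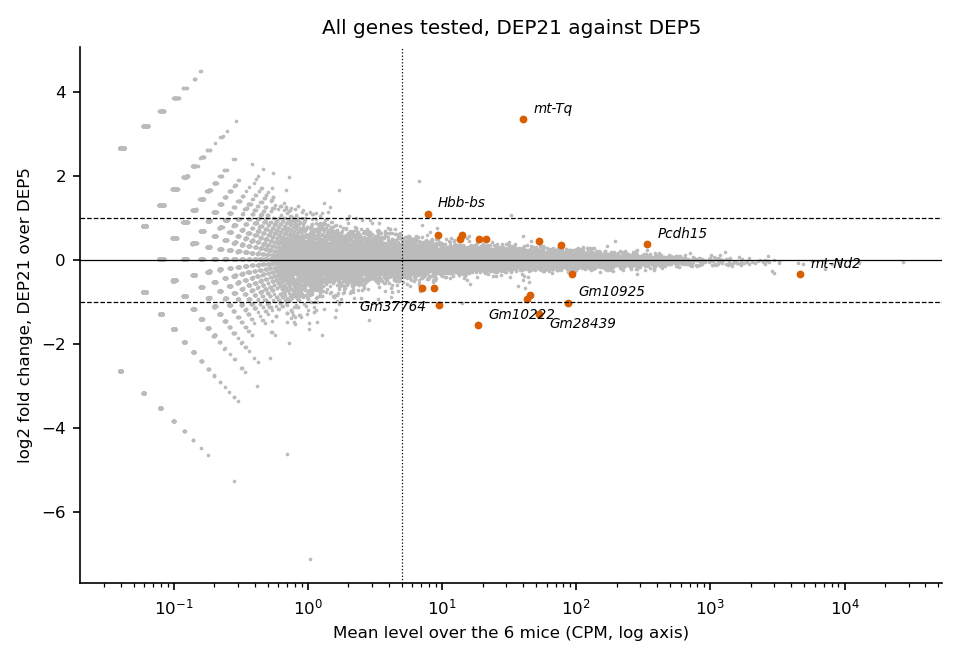
The log2 fold change of DEP21 over DEP5 is plotted against the mean level over the 6 mice in CPM on a log axis, with 1 point per gene tested and the 20 genes of smallest p with a mean of at least 5 CPM in orange. Dashed lines mark log2 fold changes of -1 and 1 and the dotted line marks 5 CPM; above 5 CPM only 9 genes lie outside the dashed lines.

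Microglial transcripts were scarce at both times. Of 30 microglial genes, 19 had at most 3 counts in each of the 6 mice and 6 had 0 counts in all of them. The fractalkine receptor Cx3cr1 and Tmem119, both defining markers, were at 0 in all 6 mice, which allows up to 0.396 CPM in the shallowest library, against 4.08 and 1.49 CPM in the CD mice. Itgam had 1 count in 1 mouse of each group. Trem2, a lipid-sensing receptor of microglia, reached at most 0.132 CPM, and Sall1, a transcription factor of microglial identity, was at 0.944, 0.842 and 0.600 CPM in DEP5 and at 0.528, 0.913 and 0.367 CPM in DEP21, with overlap. The summed level of the 30 genes was 25.8 to 34.8 CPM in DEP5 and 27.6 to 33.6 CPM in DEP21, against at least 83.5 CPM in every CD mouse. The ranges of DEP5 and DEP21 overlapped, and so did those of the depletion groups of 7, 10 and 14 days, at 27.1 to 33.1, 28.9 to 34.4 and 25.98 to 32.9 CPM.

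Csf1r, the target of the inhibitor, was among the members still detected in every mouse. It was at 10.97, 7.94 and 8.88 CPM in the DEP5 mice and at 8.19, 10.2 and 9.66 CPM in the DEP21 mice. Its log2 fold change was 0.00 (95% interval -0.35 to 0.35), and both groups lay below the CD mean of 16.2 CPM. Of the 30 genes, 16 could be tested, and none of these reached an unadjusted p under 0.05 in either direction. Ctss, a lysosomal protease of myeloid cells, was positive only through DEP21 replicate 3, at 0.799 CPM, and its log2 fold change of 1.65 became -2.64 without that mouse.

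Macrophage and monocyte genes were near the floor as well. Of 18 such genes 12 had at most 3 counts in each mouse, and 2 of the 9 tested were lower in DEP21 at an unadjusted p under 0.05, beside 1.35% of all genes. S100a9, a calcium-binding protein of neutrophils and monocytes, was at 0.826, 0.722 and 0.720 CPM in DEP5 and at 0, 0 and 0.245 CPM in DEP21, so the groups did not overlap. H2-Aa, an MHC class II chain, was at 0.236, 0.120 and 0.240 CPM in DEP5 and at 0 in all DEP21 mice. Both genes are so low that their difference amounts to a few reads per mouse, and both entered the test through the DEP5 mice alone. A gene that enters that way can hardly come out higher, so the 2 of 9 are no support for a change.

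Photoreceptor and neuronal genes had narrow intervals around 0. In the lists of rods, cones, bipolar cells, amacrine and horizontal cells, ganglion cells and synapses, 104 genes had a mean of at least 1 CPM, and the 95% interval of all 104 lay within -1 and 1. Their log2 fold changes ranged from -0.32 to 0.29 with a median of -0.02, beside a median of 0.01 over the 15748 genes of at least 1 CPM. Of these lists 3 genes were at an unadjusted p under 0.05, 1 higher and 2 lower, beside 1.75% and 1.35% of all genes.

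Gnat1, the rod transducin alpha subunit, was at 13146, 12737 and 12939.9 CPM in DEP5 and at 11696, 14712 and 11102 CPM in DEP21. Its log2 fold change was -0.06 (95% interval -0.29 to 0.16). The DEP21 mice held both the highest and the lowest values of the 6. Of the 19 rod genes, 0 reached an unadjusted p under 0.05, and the median log2 fold change was -0.06. Nr2e3, the nuclear receptor that represses cone genes in rods, had the lowest log2 fold change of the list, with 615 ± 18.8 CPM in DEP5, 553 ± 71.9 CPM in DEP21 and a log2 fold change of -0.17 (95% interval -0.37 to 0.04).

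The 3 neuronal genes at an unadjusted p under 0.05 all had small differences. Arr3, the cone arrestin that quenches cone opsin signalling, was at 203.6, 214.6 and 220.4 CPM in DEP5 and at 232, 250.4 and 260.3 CPM in DEP21, with no overlap and a log2 fold change of 0.21 (SE 0.08). Isl1, a homeodomain factor of ON bipolar, ganglion and amacrine cells, was at 101, 86.8 and 98.8 CPM in DEP5 and at 83.9, 80.8 and 78.5 CPM in DEP21, with a log2 fold change of -0.25 (SE 0.09). Prox1, a homeodomain factor of horizontal and AII amacrine cells, was at 312 ± 13.7 CPM in DEP5 and 279 ± 14.3 CPM in DEP21, with a log2 fold change of -0.17 (SE 0.08). For all of these the FDR was 0.998.

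**Figure D2:**
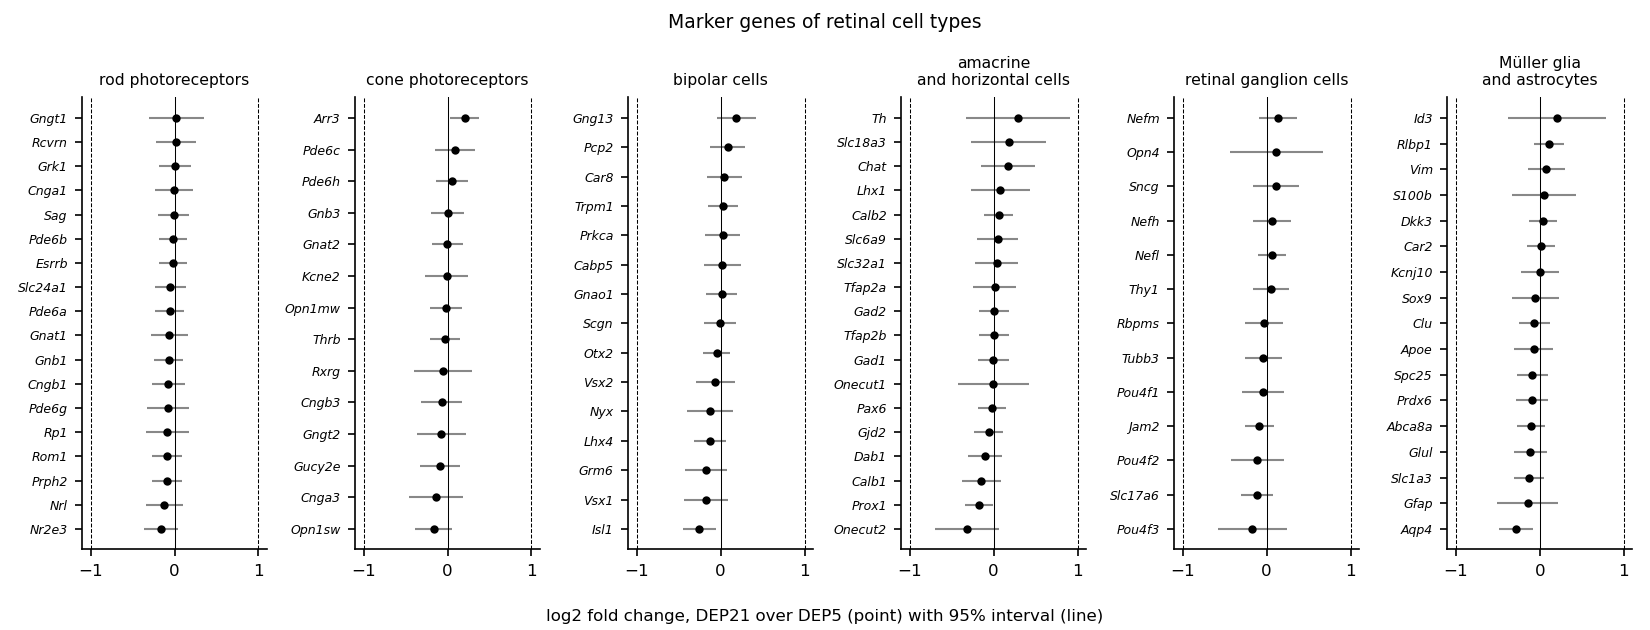
Each panel lists marker genes of a retinal cell type with a mean of at least 1 CPM, with the log2 fold change of DEP21 over DEP5 as a point and its 95% interval as a line. All intervals lie inside the dashed lines at -1 and 1, and those of Aqp4, Isl1, Prox1 and Arr3 do not cross 0.

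Müller glia and astrocyte genes differed little between day 5 and day 21. Gfap, the intermediate filament of reactive glia, was at 15.1, 20.6 and 21.4 CPM in DEP5 and at 14.9, 14.7 and 22.5 CPM in DEP21. The groups overlapped and the log2 fold change was -0.14 (95% interval -0.51 to 0.22), while the CD mean was 11.1 CPM. Glul, glutamine synthetase, which converts the glutamate taken up from synapses, was at 1755 ± 44.5 CPM in DEP5 and 1639 ± 198 CPM in DEP21. Of the 18 genes, 1 was lower in DEP21 at an unadjusted p under 0.05, beside 1.35% of all genes, and none was higher. This was Aqp4, the water channel of Müller end feet, at 184, 146 and 166 CPM in DEP5 and at 129, 148 and 134 CPM in DEP21. Its log2 fold change was -0.28 (SE 0.10, FDR 0.998), and DEP21 replicate 3 lay above DEP5 replicate 2. In a list of 22 glial reactivity genes, 1 was higher in DEP21 at that p, beside 1.75% of all genes, and none was lower. It was Ccn2, a matricellular growth factor also known as Ctgf, at 26.1, 29.8 and 23.5 CPM in DEP5 and at 31.2, 38.9 and 33.5 CPM in DEP21. Its log2 fold change was 0.37 (SE 0.13). The median of the list was 0.05.

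Immune effectors that glia and blood cells share showed no DEG. Among 17 cytokine and chemokine genes tested and 18 complement genes tested, 0 reached an unadjusted p under 0.05. C4b, a component of the classical complement pathway, was at 7.49 ± 1.22 CPM in DEP5 and 6.19 ± 1.76 CPM in DEP21, beside 3.75 CPM in CD, and its log2 fold change between the depletion times was -0.29 (95% interval -0.72 to 0.15). Of 29 interferon-stimulated genes tested, 1 was higher and 1 lower at that p, beside 1.75% and 1.35% of all genes, which is near the background. Ifit1, which binds viral RNA caps, was at 1.42, 2.89 and 2.52 CPM in DEP5 and at 1.19, 0.799 and 1.35 CPM in DEP21, with a log2 fold change of -1.04 (SE 0.36). Stat2, a transcription factor of the interferon pathway, was at 56.4 ± 0.836 CPM in DEP5 and 65.8 ± 3.19 CPM in DEP21, in the opposite direction, with a log2 fold change of 0.21 (SE 0.09).

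The genes of smallest p were led by nuclear copies of mitochondrial genes. The 20 genes of smallest p with a mean of at least 5 CPM comprised 10 higher and 10 lower in DEP21. In 18 of them the groups did not overlap, beside 8.32% of all genes tested. The 20 were chosen by their p in these same mice, so the lack of overlap largely follows from the choice. Unprocessed pseudogenes on chromosome 1 that copy the mitochondrial genome made up 5 of the 20. All of them belong to a block of 7 adjacent annotated copies at chr1:24611535-24616197 (GRCm38, minus strand), of which Gm29216 and Gm28438 are named here after their values were seen. All 7 were lower in DEP21 at an unadjusted p under 0.05, beside 1.35% of all genes. In 4 of them the groups did not overlap, beside 8.32% of all genes in either direction. The block was found through its 5 members among the 20, so these counts are no separate support.

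Gm10222, a copy of the NADH dehydrogenase subunit gene mt-Nd4l at chr1:24612407-24612700, was at 36.9, 25.4 and 20.03 CPM in DEP5 and at 15.98, 7.31 and 5.50 CPM in DEP21. That gave a log2 fold change of -1.54 (SE 0.28, FDR 0.759). Gm28439, a copy of part of mt-Nd4, was at 100.3, 64.7 and 58.1 CPM in DEP5 and at 45.7, 17.9 and 29.7 CPM in DEP21, with a log2 fold change of -1.28 (SE 0.24, FDR 0.759). Every DEP21 mouse lay below every DEP5 mouse for these genes, and DEP5 replicate 1 was the highest of all. Single groups of other days spread widely too. Gm10222 was at 11.6 to 33.3 CPM in DEP10 and 10.3 to 34.7 CPM in DEP14. Gm28439 was at 27.4 to 100.8 CPM in DEP10 and 39.9 to 101.5 CPM in DEP14. Gm10925, a copy of mt-Atp6, had 116 ± 36.4 CPM in DEP5, 58.1 ± 22.6 CPM in DEP21 and a log2 fold change of -1.02. Gm28437 (copy of mt-Co3), Gm28661 (mt-Co2), Gm28438 (mt-Nd3) and Gm29216 (part of mt-Co1) had log2 fold changes of -0.94, -0.82, -0.73 and -0.48. Gm10222 and Gm28439 reached an FDR under 0.01 with the likelihood ratio test (0.00472 for both) and without DEP21 replicate 3 or replicate 4.

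The sequences of the copies and of their mitochondrial genes are shown because most reads of 50 bases, the read length of the study, that fall in a copy would match the mitochondrial gene as well. In the GENCODE M21 transcripts of GRCm38, all 245 stretches of 50 bases in Gm10222 also occur in mt-Nd4l, all 827 of Gm28439 in mt-Nd4, and all 629 of Gm10925 in mt-Atp6. For Gm28438 it is 293 of 296 and for Gm29216 it is 430 of 443, while mt-Nd4 shares 62.2% of its own stretches and mt-Co1 51.1%. The first 100 bases of Gm10222 (chr1:24612601-24612700, minus strand) and of mt-Nd4l (chrM:9877-9976, plus strand) are printed in lower case throughout, since no base differs.
Gm10222: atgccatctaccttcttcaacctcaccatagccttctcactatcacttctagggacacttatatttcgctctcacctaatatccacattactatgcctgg
mt-Nd4l: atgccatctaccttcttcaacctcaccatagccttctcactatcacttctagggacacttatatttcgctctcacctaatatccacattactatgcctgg

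Counts on the copies and on their mitochondrial genes are therefore uncertain, because the assignment depends on how the authors' aligner and counter treated reads with several places. The mitochondrial genes whose 50-base stretches lie at 98.0% or more in a nuclear transcript had low levels per length for mitochondrial transcripts, with mt-Co3 at 15.2 CPM per kb and mt-Co2 at 33.6 CPM per kb in DEP5, against 8239 CPM per kb for mt-Cytb, which shares no such stretch. The short gene mt-Atp8 shares none either and was also low, at 36.65 CPM per kb. The summed level of the 7 copies was 521, 349.5 and 289.8 CPM in the DEP5 mice and 277.8, 135.6 and 188.2 CPM in the DEP21 mice. Their 7 mitochondrial genes together had 9574 to 11890 CPM in DEP5 and 9000 to 11160 CPM in DEP21, and these ranges overlapped.

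Genes encoded by the mitochondrion itself had a median log2 fold change of -0.16 over 15 genes, and 4 of them were lower in DEP21 at an unadjusted p under 0.05, beside 1.35% of all genes. These were mt-Nd2, mt-Nd4, mt-Nd5 and mt-Nd6, all subunits of NADH dehydrogenase, complex I of the respiratory chain. The level of mt-Nd2 was 5645, 4605 and 5173 CPM in DEP5 and 4422, 3845 and 4071 CPM in DEP21, with a log2 fold change of -0.33 (SE 0.09, FDR 0.998). The groups did not overlap for mt-Nd2 and mt-Nd5 and overlapped for the others. The other 11 genes of that list, which leaves out the transfer RNAs, had intervals that included 0. Among them was mt-Cytb at -0.07 (95% interval -0.28 to 0.14). They also held the further complex I subunits mt-Nd1, mt-Nd3 and mt-Nd4l, with log2 fold changes of -0.09, -0.16 and -0.33. Among the mitochondrial transfer RNA genes tested, mt-Ti, mt-Tl1, mt-Tm, mt-Tp, mt-Ts1, mt-Tw and mt-Ty had intervals wholly below 0. Beside these, 1.35% of all genes were lower at an unadjusted p under 0.05. The groups did not overlap for mt-Ti and mt-Tw, and mt-Ty entered the test through the DEP5 mice alone. The gene mt-Ts1, a transfer RNA for serine, had 18.7 CPM in DEP5, 9.36 CPM in DEP21 and a log2 fold change of -1.03 (95% interval -1.70 to -0.36). Intervals included 0 for mt-Ta, mt-Tf, mt-Tr, mt-Ts2, mt-Tt and mt-Tv, with log2 fold changes below 0. They also did for mt-Tc, mt-Te, mt-Tl2 and mt-Tn, with log2 fold changes above 0. The transfer RNA gene mt-Tq had a log2 fold change of 3.36 that rested on DEP21 replicate 2, at 208 CPM, while the other 5 mice lay between 4.28 and 8.96 CPM, and the value was -0.37 without that mouse.

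**Figure D3:**
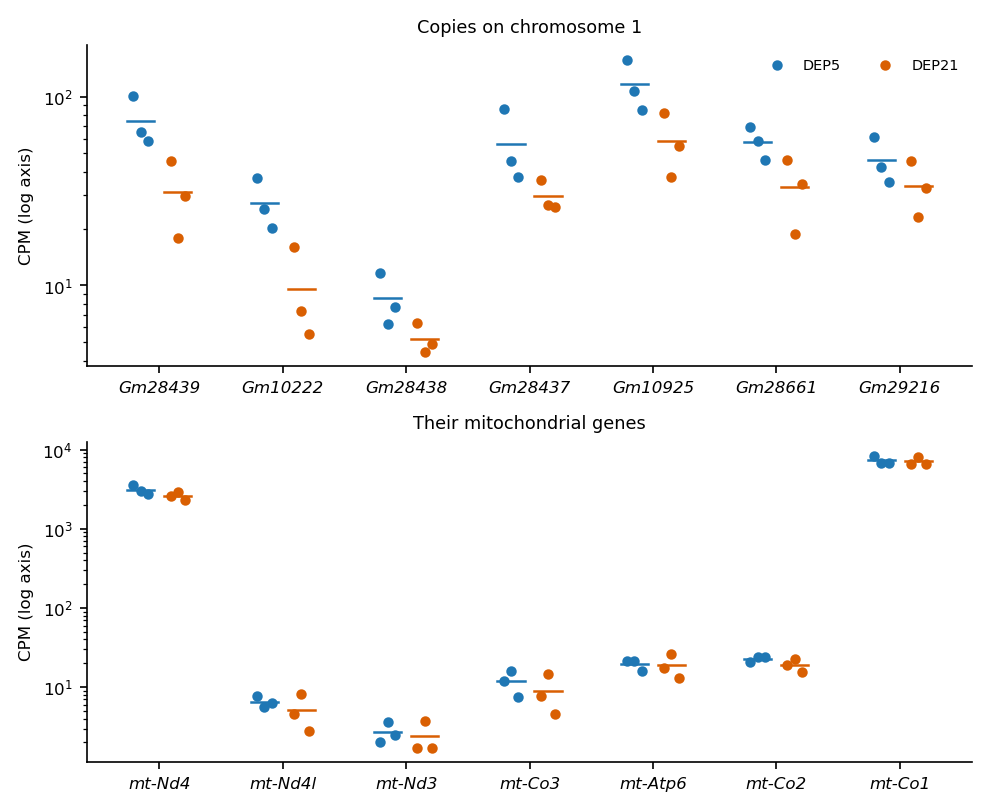
CPM on log axes in each DEP5 mouse (blue) and DEP21 mouse (orange), with lines for the means, for the 7 copies on chromosome 1 (top) and the mitochondrial gene that each one copies (bottom). The DEP21 means are lower for all 7 copies and for all 7 mitochondrial genes below them, and the groups overlap for each of these mitochondrial genes.

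The protein-coding genes among the 20 had differences of at most 1.102 on the log2 scale. Pcdh15, a cadherin of photoreceptor calyceal processes and hair cell tip links, was at 283, 304 and 289 CPM in DEP5 and at 401, 343 and 405 CPM in DEP21. That gave a log2 fold change of 0.38 (SE 0.09, FDR 0.998). The groups did not overlap. The means at 7, 10 and 14 days were 301, 275 and 336 CPM, so the day 10 mean lay below that of day 5. The slope per doubling of the days from 5 to 21 was 0.18 on the log2 scale, and it was 0.00 with a term for the title numbers. That term also sets days 14 and 21 apart from the earlier days, so a rise between them would lower the slope too. Slc5a8, a sodium-coupled transporter of monocarboxylates, was at 10.5, 10.95 and 10.7 CPM in DEP5 and at 6.999, 8.10 and 5.14 CPM in DEP21, with a log2 fold change of -0.67 (SE 0.18). Dhrs7, a short-chain dehydrogenase, was at 15.4 ± 1.68 CPM in DEP5 and 22.1 ± 1.95 CPM in DEP21, with a log2 fold change of 0.50 (SE 0.13).

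Further genes of the 20 were Wee1, the kinase that holds cells before mitosis, at 8.71 ± 0.835 and 5.47 ± 0.9998 CPM in DEP5 and DEP21, and Arsg, a lysosomal sulfatase, at 17.4 ± 0.358 and 24.98 ± 4.603 CPM. Arrdc3, an arrestin-domain protein, was at 104 ± 10.7 and 83.2 ± 2.42 CPM. Rpl17, a protein of the large ribosomal subunit, was at 44.8 ± 3.02 CPM in DEP5 and 61.4 ± 11.2 CPM in DEP21. The groups did not overlap for any of these 4 genes. In the list of cytosolic ribosomal proteins, 3 of 30 were higher at an unadjusted p under 0.05, beside 1.75% of all genes, none was lower, and the median log2 fold change was 0.11. The remaining genes of the 20 were Dnhd1, a gene with a dynein heavy chain domain, and the gene models Gm13029, Gm15270 and Gm37764.

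Genes of the extracellular matrix and of blood were also among those of small p. Of 17 matrix genes tested, 3 were higher in DEP21 at an unadjusted p under 0.05, beside 1.75% of all genes, and none was lower. Col6a1, a chain of the microfibrillar collagen VI, was at 63.3, 73.3 and 66.0 CPM in DEP5 and at 92.2, 81.8 and 87.6 CPM in DEP21, with a log2 fold change of 0.35 (SE 0.09, FDR 0.998). The CD mean was 90.1 CPM, so the DEP5 mice lay below both. Col4a1 and Col4a2, the chains of basement membrane collagen IV, had log2 fold changes of 0.35 and 0.28, and the groups overlapped for Col4a1. The median of the list was 0.08, and it was 0.19 without DEP5 replicate 3 and 0.26 without DEP21 replicate 3.

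Hbb-bs, a beta chain of haemoglobin, was at 3.42, 4.93 and 6.36 CPM in DEP5 and at 7.92, 7.53 and 16.5 CPM in DEP21. Its log2 fold change of 1.102 (SE 0.28) was the largest positive value among the genes of at least 5 CPM whose groups did not overlap. Alas2 and Hba-a2, the other red cell genes of smallest p, had log2 fold changes of 0.60 and 1.12 with intervals that included 0. The blood list summed to 18.99 to 24.2 CPM in DEP5 and 22.1 to 40.2 CPM in DEP21. Pecam1, an endothelial adhesion molecule, was at a log2 fold change of 0.28 (95% interval -0.10 to 0.66), and none of the 24 endothelial and pericyte genes reached an unadjusted p under 0.05. The part of blood left in the eye in these values was not tested.

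Genes of the molecular clock and of neuronal activity held no DEG. Of 24 clock genes, 4 were higher at an unadjusted p under 0.05, beside 1.75% of all genes, and none was lower, while the median of the list was 0.06 and its members ran from -0.13 to 0.33. Per1, a repressor of the core clock loop, was at 139.6, 177 and 133 CPM in DEP5 and at 198, 197 and 176 CPM in DEP21, and DEP5 replicate 2 lay just above DEP21 replicate 4. Its log2 fold change was 0.33 (SE 0.11, FDR 0.998). Dbp, a clock-controlled transcription factor, was at 89.0, 109.8 and 95.4 CPM in DEP5 and at 116, 113 and 128 CPM in DEP21, with a log2 fold change of 0.26. Drd4, a dopamine receptor with a daily rhythm in photoreceptors, and Usp2, a clock-controlled ubiquitin protease, had log2 fold changes of 0.28 and 0.22. Without DEP21 replicate 3 the median of the list was -0.01. The hour at which the eyes were taken is not given in the sources used here, and its part in these values was not tested.

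A promoter of Per1 is shown because it carries an E-box, the letters CACGTG, which the clock proteins CLOCK and BMAL1 are known to bind. It was searched on the 250 bases before each RefSeq start (GRCm38.p6), and the letters read the same on both strands. They occur in 6.02% of the 32851 windows and in at least 1 window of 8.86% of the 13888 tested genes with a window. Of 20 clock genes with a window, 5 had it, namely Bhlhe41, Ciart, Cry1, Per1 and Tef, and 3 of the 4 genes named above did not have it. Per1 has 2 windows, and the E-box lies in only 1 of them. That window, at chr11:69098699-69098948 (plus strand), is printed with the E-box in capitals.
Per1: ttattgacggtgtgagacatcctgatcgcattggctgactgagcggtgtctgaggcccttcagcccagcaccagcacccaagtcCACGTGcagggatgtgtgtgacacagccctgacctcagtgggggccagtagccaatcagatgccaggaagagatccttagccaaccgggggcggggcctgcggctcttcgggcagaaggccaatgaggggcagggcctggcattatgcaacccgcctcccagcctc

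Of 30 immediate early genes, which neurons induce within minutes of activity, 3 were higher at an unadjusted p under 0.05, beside 1.75% of all genes, and none was lower. The median of the list was 0.08 and its members of at least 1 CPM ran from -0.55 to 0.66. Nr4a3, an orphan nuclear receptor, was at 6.25, 7.58 and 4.92 CPM in DEP5 and at 9.11, 8.22 and 12.7 CPM in DEP21, with a log2 fold change of 0.66 (SE 0.20, FDR 0.998). Fosl1 and Jun, partners in the AP-1 transcription factor, had log2 fold changes of 0.47 and 0.25. Their groups did not overlap. Fos itself was at 24.2 ± 3.57 CPM in DEP5 and 25.7 ± 1.74 CPM in DEP21, with a log2 fold change of 0.07 (95% interval -0.20 to 0.35), and was added after its values were seen.

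Stress and metabolic genes gave a mixed picture. Hspa5, the chaperone BiP of the endoplasmic reticulum, was at 308, 266 and 369 CPM in DEP5 and at 253, 256 and 242 CPM in DEP21, with a log2 fold change of -0.34 (SE 0.10). In the same list Atf4, a transcription factor of the integrated stress response, had a log2 fold change of 0.21, in the opposite direction. Ddit4, an inhibitor of mTORC1, was at 50.8 ± 3.27 CPM in DEP5 and 63.7 ± 7.29 CPM in DEP21. Lss and Mvd, enzymes of cholesterol synthesis, had log2 fold changes of 0.28 and 0.30, and 2 of 21 genes of that pathway were higher at an unadjusted p under 0.05, beside 1.75% of all genes. Gdnf, a neurotrophic factor, was at 0.199 ± 0.0684 and 0.694 ± 0.177 CPM, with at most 7 counts in any mouse.

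**Figure D4:**
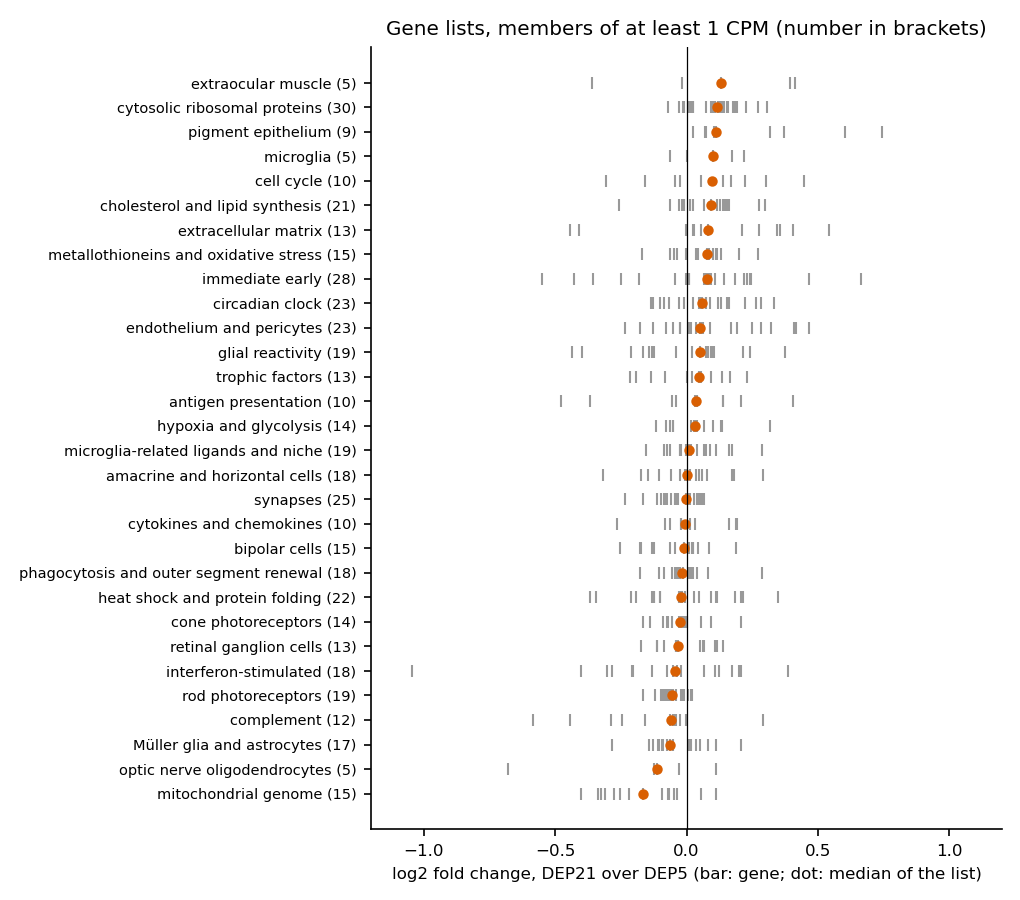
The log2 fold change of DEP21 over DEP5 is plotted for the members of at least 1 CPM of each gene list with 5 or more such members (grey bars), with the list's median as an orange dot. The medians run from -0.16 for the mitochondrial genome to 0.13 for extraocular muscle, beside a median of 0.01 over all genes of at least 1 CPM.

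Over all 34 lists, 40 of the 577 genes tested (6.93%) were at an unadjusted p under 0.05, beside 3.10% of all genes tested, and 0 were DEGs. The choice of the lists was made with earlier results of these data known. Markers of tissue next to the retina are given beside these values. Lens crystallins were high in DEP5 replicate 3 alone, with Crybb2 at 5.64 CPM there, at 0.118 and 0.481 CPM in the other DEP5 mice and at 0 in the DEP21 mice. Of 25 lens and ciliary body genes 17 were tested, and 4 of these, all crystallins, were lower in DEP21 at an unadjusted p under 0.05, beside 1.35% of all genes. All 4 entered the test through the DEP5 mice alone, so their count is no support for a change. Another 4 of the 25 were at 0 in all 6 mice. The summed level of that list was 24.3 to 46.7 CPM in DEP5 and 21.7 to 34.1 CPM in DEP21. For pigment epithelium it was 50.3 to 61.0 and 49.7 to 71.2 CPM, and for extraocular muscle 14.5 to 17.03 and 13.9 to 23.1 CPM. The part of these tissues in the other differences was not tested.

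The same question was asked over all days from 5 to 21 in 15 mice, as a slope per doubling of the days on the diet. Of 24934 genes tested, 0 (0%) had an FDR under 0.01, and 1111 (4.46%) had an unadjusted p under 0.05. With a term that separated the title numbers 15 to 28 from all others, the count of genes at an FDR under 0.01 was again 0, with a smallest FDR of 0.877.

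Retinas depleted for 14 and 7 days gave a comparison with none of the 6 mice, in which the groups also fell into different ranges of title numbers. No DEG was found there, and 496 genes had an unadjusted p under 0.05 (2.13%). Of the 331 genes of at least 5 CPM at an unadjusted p under 0.05 in DEP21 against DEP5, 234 (70.7%) had the same sign in DEP14 against DEP7, beside 7143 of all 12249 genes of that level (58.3%). Only 10 of the 331 (3.02%) were also past that p in DEP14 against DEP7, and all 10 had the same sign. Of all 12249 genes, 1.53% were past it in DEP14 against DEP7. Of the 10 genes past that p in both comparisons, Slc5a8 had the smallest p in DEP21 against DEP5. Its means were 9.76 CPM at day 7 and 6.28 CPM at day 14. That gave a log2 fold change of -0.63, close to its -0.67 between day 5 and day 21. Both of these comparisons also split the title numbers. Between day 14 and day 21 the log2 fold change of Slc5a8 was 0.09. Its slope per doubling of the days went from -0.38 to -0.16 with the title-number term, where it was no longer at an unadjusted p under 0.05. That term also separates days 14 and 21 from the earlier days, so a fall between them would lower the slope too. Rpl17, at 0.32, and Isl1, at -0.24, were also among the 10. Among the copies of mitochondrial genes, Gm10222 and Gm28439 had log2 fold changes of -0.21 and -0.01 between day 7 and day 14. Over the 12249 genes the log2 fold changes of both comparisons had a Pearson correlation of 0.17 and a Spearman correlation of 0.20. For DEP10 against DEP5 and DEP21 against DEP14, which share no mice with each other, these were -0.24 and -0.27. Both pairs describe genes of the same libraries and are no test.

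Shorter spans of time were compared with less of a split in title numbers. DEP21 and DEP14 both lie within 15 to 28, while of the DEP10 mice replicate 3 has a title number far above those of the other mice compared here. DEP10 against DEP5 had no DEG, and 1236 genes had an unadjusted p under 0.05 (5.30%). Its leading gene was Egr1, an activity-induced zinc finger factor, with a log2 fold change of 1.07 and an FDR of 0.0676. The same gene had a log2 fold change of 0.19 (95% interval -0.28 to 0.65) in DEP21 against DEP5. DEP21 against DEP14 had no DEG either, and 597 genes had an unadjusted p under 0.05 (2.57%), led by Nr4a3 with a log2 fold change of 1.48 and an FDR of 0.405. In that comparison Gm10222 and Gm28439 had log2 fold changes of -1.37 and -1.27. Both comparisons share mice with DEP21 against DEP5, so that their values are not independent of it.

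**Figure D5:**
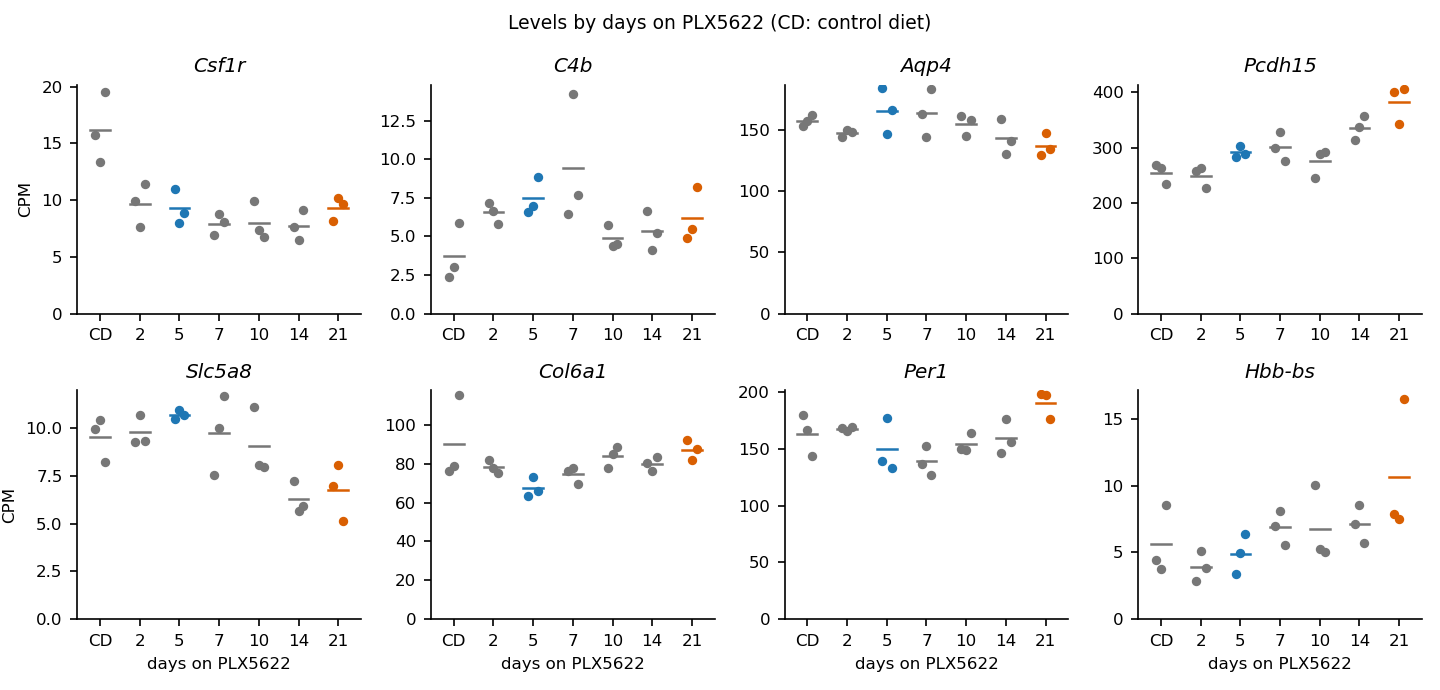
CPM in each mouse with an RE title on control diet (CD) and after 2 to 21 days on PLX5622 for 8 genes, with lines for the group means, DEP5 in blue and DEP21 in orange. Csf1r is lower in every depletion group than in CD and level from day 5 to day 21, the Pcdh15 mean is 292 CPM at day 5 and 383 CPM at day 21, and the Slc5a8 mean is 10.7 CPM at day 5 and 6.75 CPM at day 21.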

How the data were processed

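RNA of retinal homogenate was sequenced by the authors as single-end reads of 50 bases on the BGISEQ-500. The deposited counts are whole reads per gene that the authors obtained with HTSeq after HISAT2 alignment to mm10. Versions and the handling of strand and of reads with several places are not given in the sources used here, and the deposited FPKM values were not used. Poly-A RNA was selected per the labels.

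Groups and replicate numbers came from the sample labels. The quasi-likelihood test of edgeR 4.0.16 (R 4.3.3) was run on the counts of the 6 mice, with TMM factors of 0.992 to 1.02 and no term but the group. A gene entered where at least 0.5 of the mice in either group had 1 read or more, and DEGs followed the thresholds of the study. The authors describe a batch model whose batches are not named, so none was fitted. The SE is the size of the log2 fold change over the square root of F. CPM are counts scaled to a library total of 1000000. The members, gene lists and tests were chosen with earlier results of these data known.

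The genes named were DEGs, the 20 of smallest p with a mean of at least 5 CPM, up to 4 of smallest p per list, the microglial genes Cx3cr1, Itgam, Trem2, Sall1 and Tmem119, and the 5 of largest fold without overlap. Other genes named in the text were chosen after their values were seen. Symbols were found for 50376 of 50686 identifiers and coordinates are those of GENCODE M21. Alternatives were DESeq2 1.42.0, the likelihood ratio test, RLE or no factors, other filters, larger fits, a replicate block and leaving out each mouse. The scripts were tested on simulated data. Figures used matplotlib with Python 3.11.15. Some items are not reported here.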

Additional observations from a re-analysis of the deposited data

How the results depend on the processing

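For DEP21 against DEP5 the count of DEGs was 0 with DESeq2, RLE factors, no factors, filterByExpr, both larger fits, DEP21 replicate 1 added and a newer quasi-likelihood setting chosen after seeing the data. It was 3 with the likelihood ratio test, 12 with no gene filter and 0 to 17 when each mouse was left out, the 17 without DEP21 replicate 3. The list genes then held 0 to 3 DEGs. With the replicate block, which matches only the mice numbered 2 and 3 (correlations 0.18 and -0.28) and shows no pairing, it was 10. DEP10 against DEP5 had 3 DEGs and DEP21 against DEP14 had 1 with the likelihood ratio test, and 0 to 5 and 0 to 11 when each mouse was left out. Genes at an unadjusted p under 0.05 numbered 230 with DESeq2, 439 with filterByExpr and 479 to 2063 when each mouse was left out.

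Log2 fold changes near 0 or resting on 1 mouse changed sign. With the replicate block these were Gucy2e (0.0703), Grm6 (0.0138), Hbb-bt (-0.12), Ttn (-0.0807), Ckm (-0.0612), Tulp1 (-0.033) and Sall1 (0.0108). With all 16 groups they were Ckm (-0.00216) and Gpx3 (-0.0327), and with DEP21 replicate 1 added Atp2a1 (0.057). When each mouse was left out, the value ran from -0.242 to 0.022 for Gucy2e, -0.27 to 0.933 for Hbb-bt, -2.64 to 2.21 for Ctss, -0.37 to 3.91 for mt-Tq, -0.221 to 0.0556 for Eif2s3y and -0.0333 to 0.189 for Tulp1. The cause was not tested. With 3 mice a group, genes below 5 CPM are the least certain.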
